A study of Mus musculus with 12 samples.

Results

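Cyclic AMP is the second messenger through which dopamine, adenosine and many other receptors act in the brain. The genes described here belong to families that make, break down and read it, though not every member acts on it. They were chosen by name from the array annotation: the phosphodiesterases (a Pde symbol with a number and a letter), the adenylyl cyclases (Adcy with a number) and the catalytic and regulatory subunits of protein kinase A (Prkaca, Prkacb, Prkar1a, Prkar1b, Prkar2a and Prkar2b). The rule chose genes by symbol and not by a measured value, with earlier results of these data known. It found 39 of the 18193 genes with a single symbol, namely 23 phosphodiesterases, 10 adenylyl cyclases and 6 kinase subunits, covered by 100 probe sets. Each gene is represented by its probe set with the highest mean over all arrays, a choice that does use the measured values.

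Expression was measured in 4 groups of 3 arrays each, made from male outbred Swiss mice that drank ethanol by free choice. The groups were striatum of inflexible drinkers, prefrontal cortex of inflexible drinkers, striatum of light drinkers and prefrontal cortex of light drinkers, and the striatum was taken whole. In both classes the mice could choose, once 6 weeks old, between water and ethanol at 5% and 10%, through 10 weeks of acquisition, 2 weeks of withdrawal, 2 weeks of reinstatement and 2 weeks with quinine at 0.005 g/L, and were 22 weeks old at the end. Inflexible drinkers kept to ethanol when quinine had made it bitter and had 113 ± 11.3 mg/dL blood ethanol, whereas light drinkers kept mainly to water and had 48 ± 13.3 mg/dL (kind of error not stated in the labels). Both classes had therefore taken ethanol, and no group without ethanol is described here. The labels give a single RNA pool concentration per group, so the 3 arrays may share one pool, and the p-values below then measure the spread between arrays and not between mice.

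Adenylyl cyclases turn ATP into cyclic AMP, most of them when a stimulatory G protein engages them. Isoforms differ in how calcium, inhibitory G proteins and G beta-gamma dimers act on them. Phosphodiesterases hydrolyse cyclic AMP, cyclic GMP or both. Protein kinase A is held inactive by a pair of regulatory subunits until cyclic AMP binds them and frees the catalytic subunits. In the striatum, the medium spiny projection neurons are known for Adcy5, which serves dopamine and adenosine receptors, and for Pde10a and Pde1b.

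A group mean above a log2 value of 4, a mark for low signal, was reached by 22 members in at least 1 group. The other 17 stayed at or below it in every group: the cyclases Adcy4, Adcy6, Adcy7, Adcy8 and Adcy10, and the phosphodiesterases Pde1c, Pde3a, Pde4a, Pde5a, Pde6a, Pde6b, Pde6c, Pde6g, Pde6h, Pde8a, Pde9a and Pde11a. Among them are the photoreceptor phosphodiesterase genes Pde6a, Pde6b, Pde6c, Pde6g and Pde6h. Pde6d, by contrast, encodes a carrier of prenylated proteins and averaged 4.40 ± 0.24 in inflexible striatum. Group levels are means of the 3 arrays on the deposited log2 scale, with the SD after ±, and differences are in log2 units with the SE after ±, and no level is compared between genes, since probe sets differ in brightness.

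Promoter windows are shown for the 5 members that differed in the same direction between striatum and prefrontal cortex in both drinking classes, as described further on. They are RefSeq sequences of build GRCm38.p6, each of 300 bases running from 250 bases before a transcript start to 50 bases from it on, read 5′ to 3′ on the gene's strand. Capitals mark GC boxes (GGGCGG or CCGCCC), the letters bound by Sp-family factors. Where a gene had several windows, the most upstream one in the table is printed. For Adcy5, Pde10a and Pde7b this start lies inside the gene as RefSeq draws it.

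Adcy5, chr16:35154614-35154913, plus strand: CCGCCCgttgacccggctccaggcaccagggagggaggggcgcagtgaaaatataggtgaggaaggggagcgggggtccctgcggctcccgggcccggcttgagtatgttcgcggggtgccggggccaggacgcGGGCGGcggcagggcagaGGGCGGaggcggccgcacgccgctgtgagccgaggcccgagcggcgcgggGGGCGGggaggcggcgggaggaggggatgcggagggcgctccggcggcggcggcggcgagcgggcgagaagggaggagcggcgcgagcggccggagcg

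Pde1b, chr15:103502784-103503083, plus strand: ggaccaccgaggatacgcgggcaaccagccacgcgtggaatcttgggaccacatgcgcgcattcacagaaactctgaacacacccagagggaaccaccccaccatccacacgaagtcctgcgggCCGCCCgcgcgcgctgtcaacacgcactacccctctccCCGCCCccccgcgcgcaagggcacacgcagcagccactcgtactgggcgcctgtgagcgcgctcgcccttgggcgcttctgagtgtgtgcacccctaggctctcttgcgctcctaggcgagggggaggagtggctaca

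Pde7b, chr10:20548279-20548578, minus strand: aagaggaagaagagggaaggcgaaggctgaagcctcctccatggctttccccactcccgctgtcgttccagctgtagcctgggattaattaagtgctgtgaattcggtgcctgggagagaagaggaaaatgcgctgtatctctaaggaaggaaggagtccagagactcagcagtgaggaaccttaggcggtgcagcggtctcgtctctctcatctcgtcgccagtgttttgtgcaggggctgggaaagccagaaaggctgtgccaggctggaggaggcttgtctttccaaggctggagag

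Pde10a, chr17:8801495-8801794, plus strand: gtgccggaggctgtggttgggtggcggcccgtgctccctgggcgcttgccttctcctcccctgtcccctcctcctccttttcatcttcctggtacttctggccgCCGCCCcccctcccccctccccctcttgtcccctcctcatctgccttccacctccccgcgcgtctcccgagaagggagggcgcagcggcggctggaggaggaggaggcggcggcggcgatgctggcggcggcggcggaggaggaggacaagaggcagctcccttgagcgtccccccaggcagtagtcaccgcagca

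Pde4d, chr13:108653927-108654226, plus strand: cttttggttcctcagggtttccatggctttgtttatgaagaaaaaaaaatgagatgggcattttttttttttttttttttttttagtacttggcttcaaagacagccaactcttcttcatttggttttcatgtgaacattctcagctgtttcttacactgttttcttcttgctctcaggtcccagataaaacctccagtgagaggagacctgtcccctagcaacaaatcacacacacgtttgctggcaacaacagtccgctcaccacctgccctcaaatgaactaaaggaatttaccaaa

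The 4 members higher in striatum did not share these letters: the window of Adcy5 held 4 GC boxes, that of Pde1b 2, that of Pde10a 1 and that of Pde7b 0. The window of Pde4d, the member lower in striatum, also held 0 GC boxes and had 39.7% G and C, against 79.0% for Adcy5. None of the 5 windows held TGACG or CGTCA, the core of the cyclic AMP response element that CREB binds, read on both strands. RefSeq windows were matched for 30 of the 39 members, 67 windows in all. The core stood in 16 of them (23.9%), against 20.8% of all 32851 windows in the table. GC boxes stood in 27 (40.3%), against 35.7% of all windows. The palindromic full element TGACGTCA, which contains the core on both strands, was found in 2 member windows, both of Prkar1a, and in 1.79% of all windows. These 2 windows overlap and may hold the same element. Overlapping windows of a gene were each counted in all these shares. The letters TATAAA (or TTTATA) stood in 4 member windows and in 13.6% of all windows. These matches describe the letters of the windows and are not sites of measured binding.

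Several features of the arrays move with the groups. Medium spiny neuron markers were higher in striatum than in prefrontal cortex, as the tissue labels say, for 12 of the 14 markers measured in inflexible drinkers and 13 of 14 in light drinkers. Within prefrontal cortex they also differed by class: 6 of the 14 were called higher in inflexible drinkers (Penk, Drd1, Gpr6, Rgs9, Bcl11b and Rarb), and the log2 of their summed signal ran between 9.37 and 9.42 in inflexible and between 8.56 and 8.66 in light drinkers. In striatum that sum ran between 10.81 and 10.93 in inflexible and between 10.34 and 10.48 in light drinkers, with 0 of 14 called, and 12 of the 14 passed log2 4 in at least 1 group. Oligodendrocyte markers were called higher in inflexible prefrontal cortex for 6 of 10, with sums between 10.57 and 11.04 against 9.32 and 9.93 in light drinkers. The choroid plexus list had 1 of 9 called, Ttr, with sums between 10.37 and 11.09 against 6.44 and 6.48. Cortical excitatory neuron markers had 1 of 9 called higher (Neurod6) and a median difference of -0.24. Between striatum and prefrontal cortex, oligodendrocyte markers were called higher in striatum for 1 of 10 in inflexible and 10 of 10 in light drinkers, and choroid plexus markers for 0 of 9 in inflexible and 6 of 9 in light drinkers. Cortical excitatory markers were called lower in striatum for 2 of 9 in inflexible and 4 of 9 in light drinkers, with Neurod6 higher there in light drinkers. The part of these markers in the tissue differences below was not tested. The spiked hybridisation controls were high on 5 arrays and low on 7, with 1 high array in each prefrontal group, 2 of 3 in inflexible striatum and 1 of 3 in light striatum. What set these controls apart is not given in the labels.

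The prefrontal comparison addressed which transcripts differed between mice that went on drinking bitter ethanol and mice that drank little of it. Among the members, Pde10a rose in inflexible drinkers and no other member was called. Pde10a encodes the phosphodiesterase that degrades both cyclic AMP and cyclic GMP in medium spiny neurons. Its probe set 1439618_at gave 6.95, 6.98 and 7.02 in inflexible prefrontal cortex, against 5.71, 5.41 and 5.54 in light prefrontal cortex. All 3 inflexible arrays lay above all 3 light arrays, and the inflexible arrays lay close together. The rise was 1.43 ± 0.17 or 2.70-fold (limma, Benjamini-Hochberg adjusted p = 0.00489). One member called higher and 0 called lower compares with 0.577% of all genes called higher and 0.462% called lower. After quantile normalisation 1 member was called higher and 1 lower (Pde4d), where 1.18% of all genes were called.

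The 4 other Pde10a probe sets gave positive differences as well, with sizes that varied. Probe sets 1419389_at and 1458499_at differed by 0.53 and 0.56 (adjusted p = 0.318 and 0.278), 1432490_a_at by 0.24 and 1419390_at by 0.12, and none of the 4 was called on its own. The mean over the 5 probe sets differed by 0.58 and was called (adjusted p = 0.0085). The rise of Pde10a moved with the marker sums given above, in which a higher share of medium spiny neurons in the dissected tissue and more transcript per cell cannot be told apart in bulk RNA, and their part in it was not tested. The 2 prefrontal arrays with high controls, 1 per class, gave a difference of 1.58, and the 4 with low controls gave 1.36 (adjusted p = 0.0146).

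The members that came next by p-value did not pass the adjustment. Pde4d, a cyclic AMP-specific enzyme and a target of rolipram, gave 5.54, 5.40 and 5.58 in inflexible prefrontal cortex and 5.93, 5.90 and 5.95 in light prefrontal cortex. The arrays did not overlap, with every inflexible array lower. The difference was -0.42 ± 0.08 with an adjusted p of 0.053, just outside the threshold. Its other probe set, 1459311_at, at low signal, differed by -0.09, and the mean of both by -0.26 (adjusted p = 0.196). Same-numbered prefrontal arrays deviated together, and with replicate number as a block the result depended on the arrays fitted. Over all 12 arrays Pde10a alone was called, beside 0.594% of all genes. The 6 prefrontal arrays were also fitted alone, a setting chosen after seeing the data. There 3 members (Pde10a, Pde1b and Pde4d) were called, beside 2.74% of all genes. The adjusted p of Pde4d was 0.144 in the first of these fits and 0.0318 in the second.

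Prkar1b, a type I regulatory subunit of protein kinase A found mainly in neurons, gave 8.83, 8.57 and 8.61 in inflexible and 9.41, 8.94 and 9.36 in light prefrontal cortex. Its arrays did not overlap, and the light array with high controls was the lowest of its group. The difference was -0.57 ± 0.17 (adjusted p = 0.279), and the other 4 Prkar1b probe sets differed by -0.65, -0.64, -0.49 and -0.20. The representative probe set carries the suffix of sets that may match other transcripts too. Adcy2, a cyclase stimulated by G beta-gamma dimers, gave 5.99, 5.89 and 6.07 in inflexible and 6.61, 6.07 and 6.59 in light prefrontal cortex. The highest inflexible and lowest light arrays were nearly level, and the difference was -0.44 ± 0.14 (adjusted p = 0.307). Without the second light array, the one that was level, it was -0.62 and was called (adjusted p = 0.0199), as it was on the low-control arrays (-0.57, adjusted p = 0.0214) and with array weights (-0.54, adjusted p = 0.00164). On the high-control arrays, 1 per class in prefrontal cortex, it was -0.19. Without the first or the third light array it was -0.35 or -0.36, not called.

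Pde1b, a calcium- and calmodulin-stimulated enzyme of medium spiny neurons, gave 6.02, 6.00 and 5.81 in inflexible and 5.40, 5.20 and 5.34 in light prefrontal cortex. All inflexible arrays were higher, by 0.63 ± 0.20 on average (adjusted p = 0.305). Pde8a, a high-affinity cyclic AMP enzyme, gave 3.82, 3.95 and 3.84 in inflexible and 3.61, 3.30 and 3.65 in light prefrontal cortex, near the low end of the scale where differences are compressed. Its difference was 0.35 ± 0.10 (adjusted p = 0.251).

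In all, 10 of the 39 members had an unadjusted p under 0.05 in prefrontal cortex, against 1668 of the 18193 genes. The 3 arrays of each class did not overlap for 12 members, 5 higher (Pde1a, Pde1b, Pde7b, Pde8a and Pde10a) and 7 lower (Adcy1, Adcy2, Adcy4, Pde4d, Pde7a, Prkacb and Prkar1b), while 14.1% of all genes did not overlap in this comparison. By role, the non-overlapping members were 3 of 10 cyclases, 7 of 23 phosphodiesterases and 2 of 6 kinase subunits. The median difference of the members was 0.01, beside 0.00 over all genes. Of the calmodulin-dependent enzymes, Pde1b differed by 0.63 ± 0.20, Pde1a by 0.09 ± 0.16 and Pde1c by 0.08 ± 0.08. Of the cyclic AMP-specific pair, Pde7b differed by 0.49 ± 0.16 and Pde7a by -0.25 ± 0.09. None of these 5 was called, and no difference between genes was tested.

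**Figure D1:**
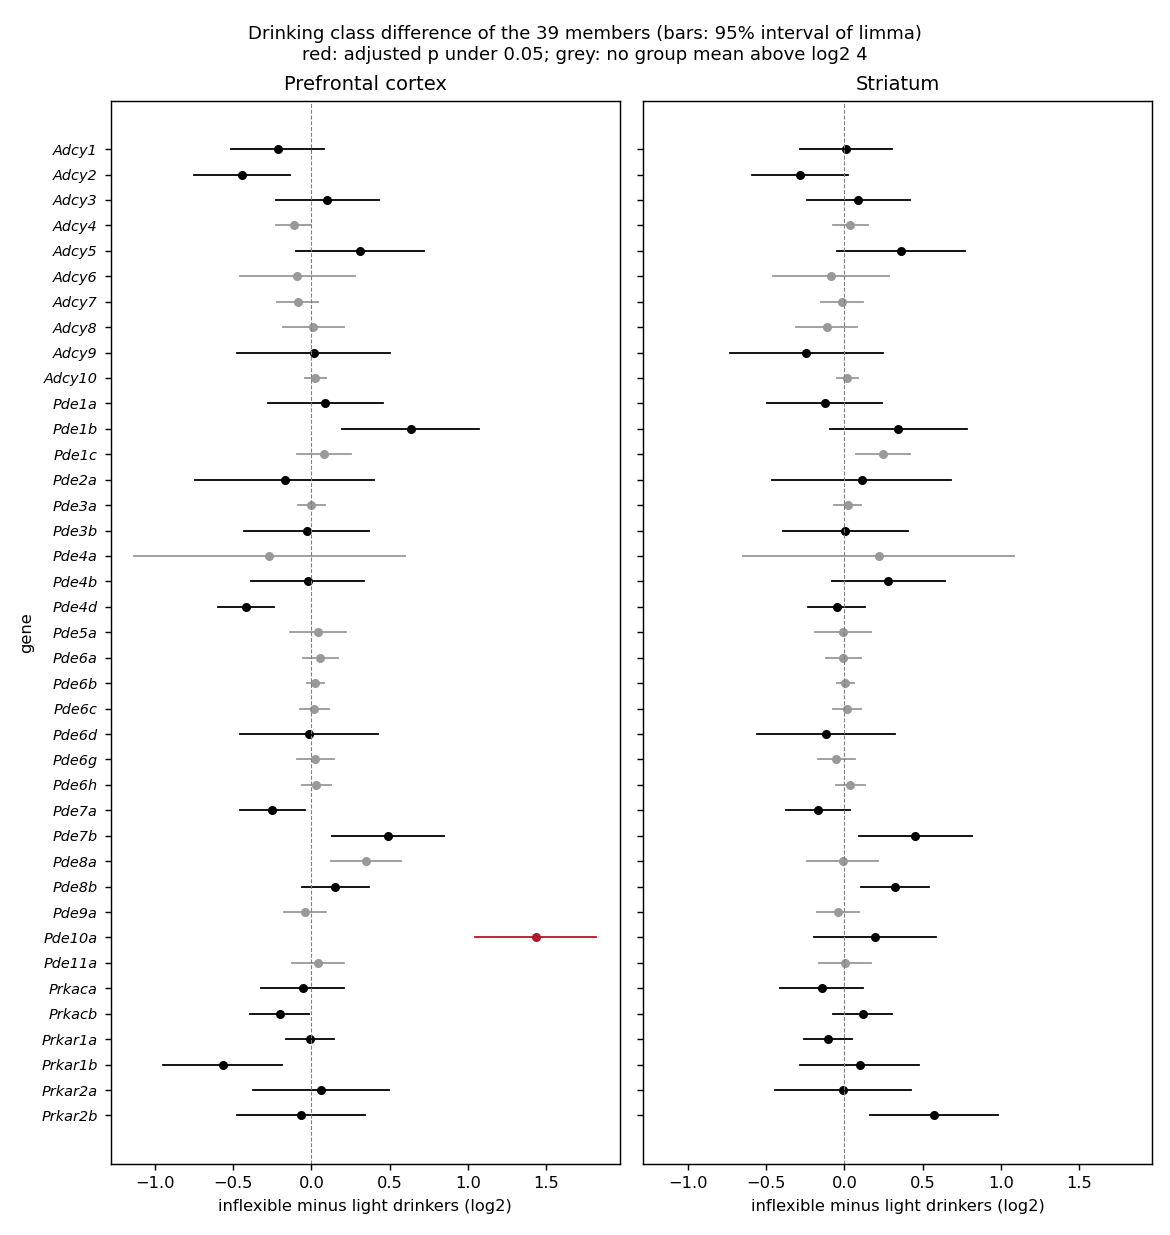
Difference between inflexible and light drinkers for each of the 39 members (log2, x axis) in prefrontal cortex and in striatum, with the 95% interval of the limma fit as bars, from 3 arrays per group. Pde10a in prefrontal cortex, at 1.43, is the single member past the adjusted threshold (red), and members with no group mean above log2 4 are grey.

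In striatum no member was called between the classes. The count was 0 of 39 in limma, with adjusted p-values that all rounded to 1.00. This comparison called 0.022% of all genes higher and 0% lower. Unadjusted p was under 0.05 for 4 members, against 672 of the 18193 genes. Pde10a itself gave 8.28, 8.20 and 8.76 in inflexible striatum and 8.54, 8.20 and 7.91 in light striatum. The arrays of the classes overlapped and the difference was 0.19 ± 0.17, with a 95% interval between -0.19 and 0.58. Adcy5, the main cyclase of medium spiny neurons, gave 7.30, 6.61 and 6.71 in inflexible and 6.54, 6.63 and 6.37 in light striatum. These also overlapped, with 1 inflexible array above the rest, and the difference was 0.36 ± 0.18 (interval -0.05 to 0.77).

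The members with the smallest p-values in striatum are given as values. Prkar2b, the type II beta regulatory subunit known for its abundance in striatal neurons, gave 5.64, 5.43 and 5.92 in inflexible and 5.20, 5.00 and 5.08 in light striatum. All inflexible arrays were higher, by 0.57 ± 0.18, and a further probe set, 1438664_at, differed by 0.51. Prkar2b was also higher on high-control arrays in each of the 4 groups, by 0.37 on average, and inflexible striatum held 1 more such array than light striatum; the part of this in the difference was not tested.

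Pde8b, a relative of Pde8a with low sensitivity to common inhibitors, gave 5.87, 5.75 and 5.89 in inflexible and 5.52, 5.49 and 5.53 in light striatum. The arrays did not overlap and the difference was 0.32 ± 0.10. Pde7b, a cyclic AMP-specific enzyme found in striatum, gave 6.48, 6.93 and 6.45 in inflexible and 5.87, 6.21 and 6.42 in light striatum. Its highest light array came close to the lowest inflexible one, and the difference was 0.45 ± 0.16. Pde1c, the third calmodulin-dependent gene, gave 3.68, 3.50 and 3.35 in inflexible and 3.25, 3.34 and 3.19 in light striatum, all at low signal. It differed by 0.25 ± 0.08. Adcy2 ran the other way, at 5.46, 5.32 and 5.18 in inflexible and 5.51, 5.57 and 5.72 in light striatum, a difference of -0.28 ± 0.14.

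Arrays did not overlap for 5 of the 39 members in striatum, 4 higher in inflexible drinkers (Pde1c, Pde7b, Pde8b and Prkar2b) and 1 lower (Adcy2), while 7.53% of all genes did not overlap. The median difference of the members was 0.01, beside 0.00 over all genes. Intervals for single members reached well past 0 on both sides in some cases. Examples were Pde2a, the cyclic GMP-stimulated enzyme (0.11, -0.46 to 0.68), and Pde4a (0.22, -0.65 to 1.08). Differences of these sizes were not detectable at this spread with 3 arrays a group. Both genes also differed between high-control and low-control arrays with one sign in all 4 groups, as given further on. The part of this in their intervals was not tested.

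Whether the class difference itself differed between the tissues was tested as striatal minus prefrontal class difference. No member was called by limma, and the comparison called 0.165% of all genes higher and 0.275% lower. Unadjusted p was under 0.05 for 6 of the 39 members, against 1289 of the 18193 genes. Pde10a had the smallest p, with a difference of differences of -1.24 ± 0.24 (interval -1.79 to -0.69, limma adjusted p = 0.105). The rise in prefrontal cortex is thus not shown to differ from the striatal value at the threshold used. With the hybridisation control split as a block, with probe sets restricted to those above log2 4, or with array weights, it was called. The other members under 0.05 before adjustment were the kinase subunits Prkar1b (0.67 ± 0.24), Prkar2b (0.64 ± 0.26) and Prkacb (0.32 ± 0.12) and the phosphodiesterases Pde4d (0.37 ± 0.11) and Pde8a (-0.36 ± 0.14). Without the first light striatal array Pde1a was called, and its values in light striatum were 4.86, 5.55 and 5.64, with that array far below the others.

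Tissue separated the members more than drinking class did in counts of calls. In inflexible drinkers 6 of 39 members were called between striatum and prefrontal cortex, 5 higher in striatum and 1 lower. Of all genes, 0.561% were called higher and 0.643% lower. After quantile normalisation 5 members were higher and 2 lower, with Adcy2 added, where 1.45% of all genes were called. In light drinkers 8 were called, 5 higher and 3 lower, where 2.18% of all genes were called higher and 2.5% lower. The class and tissue comparisons share arrays: those of light prefrontal cortex, for one, enter both the prefrontal class difference and the tissue difference of light drinkers, so the values below are set side by side and not taken as separate support. In a fit of the 6 inflexible arrays alone none of the 6 calls in inflexible drinkers was kept, so these rest on the spread of all 12 arrays. The low-control arrays hold 1 array of inflexible striatum, so calls on them are not given for this comparison.

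Pde10a had the largest tissue difference of the members in light drinkers. With the array values given above, inflexible drinkers averaged 8.41 ± 0.30 in striatum and 6.99 ± 0.03 in prefrontal cortex, a difference of 1.43 ± 0.17 or 2.69-fold (limma adjusted p = 0.00621). Light drinkers averaged 8.22 ± 0.32 in striatum and 5.55 ± 0.15 in prefrontal cortex, a difference of 2.67 ± 0.17 or 6.34-fold (adjusted p = 3.58e-05). The level order over the groups was thus inflexible striatum, light striatum, inflexible prefrontal cortex and light prefrontal cortex, and the striatal groups did not differ beyond their spread. Probe sets 1419389_at and 1458499_at were called higher in striatum in both classes too, by 1.09 and 0.98 in inflexible drinkers and by 1.52 and 1.28 in light drinkers. The mean over its 5 probe sets was higher by 0.88 in inflexible and 1.36 in light drinkers, both called.

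Pde1b followed the same order of group means. It gave 7.87, 7.22 and 7.77 in inflexible striatum and 7.54, 7.41 and 6.87 in light striatum, all above every prefrontal array. The tissue difference was 1.67 ± 0.20 or 3.19-fold in inflexible drinkers (adjusted p = 0.00518) and 1.96 ± 0.20 or 3.90-fold in light drinkers (adjusted p = 0.000433). On low-control arrays, which hold 1 array of inflexible striatum, the difference in inflexible drinkers was 1.30.

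Adcy5 gave 5.41, 5.15 and 4.99 in inflexible and 4.79, 5.10 and 4.74 in light prefrontal cortex, below every striatal array. Its class groups overlapped within each tissue. The tissue difference was 1.69 ± 0.18 or 3.23-fold in inflexible drinkers (adjusted p = 0.00332) and 1.63 ± 0.18 or 3.10-fold in light drinkers (adjusted p = 0.000849). On low-control arrays, with 1 array of inflexible striatum, the difference in inflexible drinkers was 1.41. Of its other 3 probe sets, 1447696_x_at differed by 0.18 in inflexible and 0.09 in light drinkers, and the 2 at low signal by between -0.03 and 0.06, none of them called. The mean of the 4 was higher in striatum by 0.47 in inflexible and 0.43 in light drinkers (adjusted p = 0.00544 in inflexible and 0.00319 in light drinkers). Of the 10 cyclases Adcy5 was the single one called higher in striatum.

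Pde7b gave 5.53, 5.25 and 5.48 in inflexible and 4.86, 4.86 and 5.06 in light prefrontal cortex, each array below every striatal one. Striatum was higher by 1.20 ± 0.16 or 2.30-fold in inflexible drinkers (adjusted p = 0.0103) and by 1.24 ± 0.16 or 2.36-fold in light drinkers (adjusted p = 0.0021). Its other 2 probe sets stayed at low signal, with tissue differences between 0.02 and 0.21. The mean of its 3 probe sets was higher by 0.52 in inflexible and 0.46 in light drinkers, both called.

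**Figure D2:**
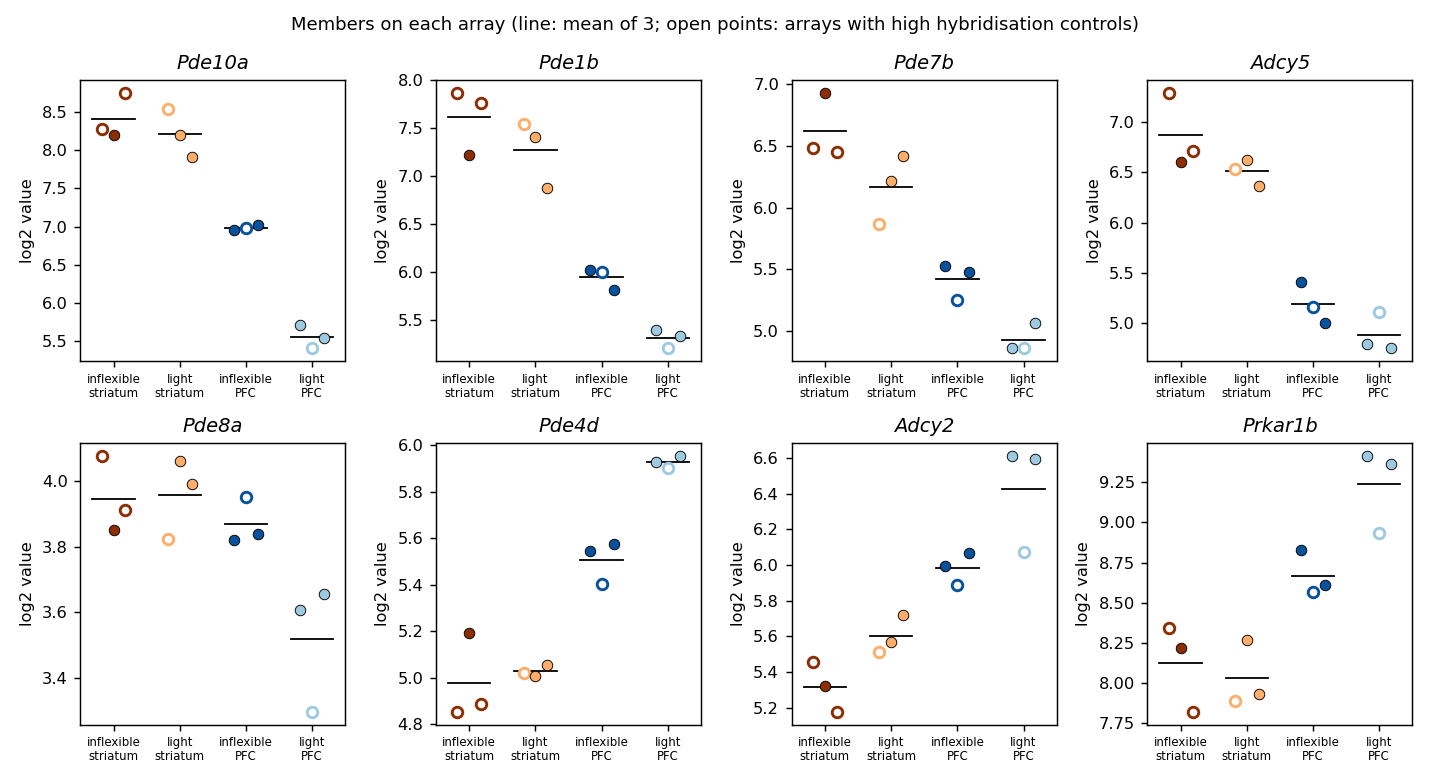
Deposited log2 values (y axis, own scale per gene) of 8 members on each of the 12 arrays, by group, with the mean of 3 as a line and arrays with high hybridisation controls as open points. Pde10a stands at 6.95 to 7.02 in inflexible and 5.41 to 5.71 in light prefrontal cortex, while its striatal groups overlap. Pde4d, Adcy2 and Prkar1b are highest in light prefrontal cortex.

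Pde4d was lower in striatum in both classes. It gave 4.85, 5.19 and 4.89 in inflexible striatum and 5.02, 5.01 and 5.06 in light striatum, below every prefrontal array. The difference was -0.53 ± 0.08 in inflexible drinkers, 1.45-fold lower (adjusted p = 0.0173), and -0.90 ± 0.08 in light drinkers, 1.87-fold lower (adjusted p = 0.000236). The call in inflexible drinkers was lost without the first or the third inflexible array of either tissue.

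Prkar1b gave 8.34, 8.22 and 7.82 in inflexible striatum and 7.89, 8.27 and 7.93 in light striatum. In inflexible drinkers its tissue difference was -0.54 ± 0.17 (adjusted p = 0.347). In light drinkers it was 2.31-fold lower in striatum (-1.21 ± 0.17, adjusted p = 0.00342), and of its other probe sets 3 were called lower there as well, with differences of -1.16, -1.17 and -1.20. Adcy2 had a tissue difference of -0.66 ± 0.14 in inflexible drinkers (adjusted p = 0.0756). In light drinkers it was 1.77-fold lower in striatum (-0.82 ± 0.14, adjusted p = 0.00883), a call that was lost when the light arrays were fitted alone. That these were called in 1 class and not in the other does not show a difference between classes: the interaction had adjusted p-values of 0.664 for Prkar1b and 0.999 for Adcy2.

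Pde8a and Pde1c, both at low signal, were each called in a single class. Pde1c was higher in striatum of inflexible drinkers by 0.45 ± 0.08 (adjusted p = 0.0304), with a difference of 0.28 ± 0.08 in light drinkers (adjusted p = 0.0961). Pde8a had a tissue difference of 0.08 ± 0.10 in inflexible drinkers and was higher in striatum of light drinkers by 0.44 ± 0.10 (adjusted p = 0.0495). Pde8a lost its call when any 1 array was left out except the first light striatal one, with a largest adjusted p of 0.382 over the settings tried. Pde1c lost its call when any 1 of 7 arrays was left out.

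**Figure D3:**
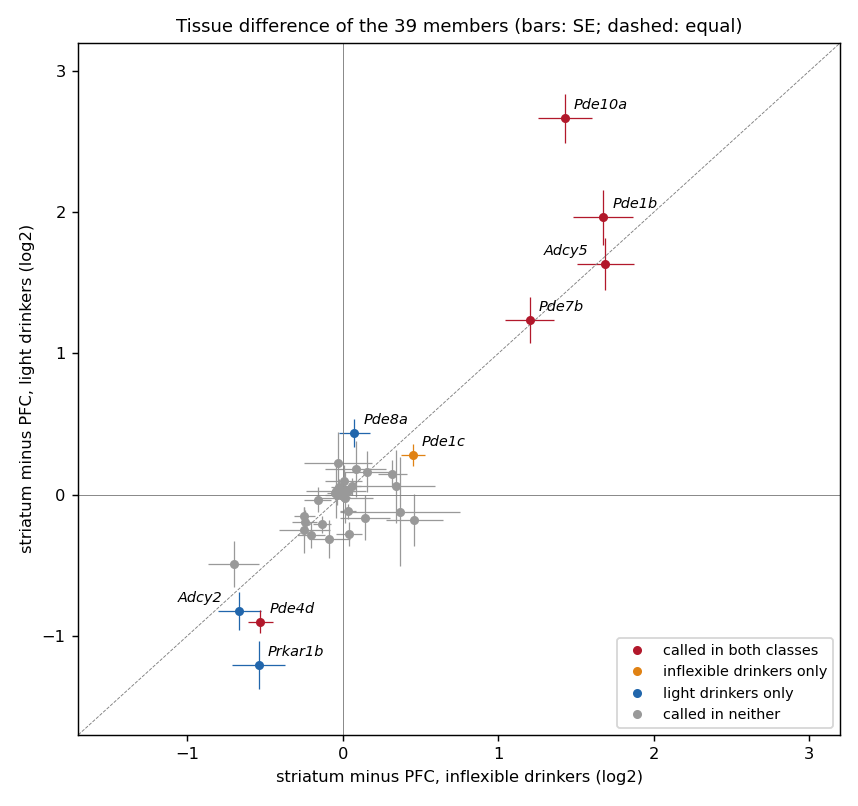
Striatum minus prefrontal cortex (log2) for each of the 39 members in inflexible drinkers (x axis) and light drinkers (y axis), with SE as bars, 3 arrays per group and a dashed line of equal values. Pde10a, Pde1b, Adcy5 and Pde7b lie at the upper right and were called in both classes, as was Pde4d at the lower left; Pde10a lies above the dashed line, at 1.43 and 2.67.

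The members at the other end showed little difference by tissue. The catalytic subunit Prkaca phosphorylates the targets of the pathway. It averaged 7.05 ± 0.16 in inflexible striatum and 7.04 ± 0.11 in inflexible prefrontal cortex, a difference of 0.01 ± 0.12 (interval -0.26 to 0.27). In light drinkers it differed by 0.09 ± 0.12 (interval -0.17 to 0.36). Its representative probe set, like that of Prkar1b, carries the suffix of sets that may match other transcripts too. Prkar2a, the type II alpha regulatory subunit, differed by -0.04 ± 0.19 in inflexible drinkers and by 0.03 ± 0.19 in light drinkers. Pde3b, inhibited by cyclic GMP and known from insulin signalling, differed by 0.01 ± 0.18 in inflexible and -0.02 ± 0.18 in light drinkers. Adcy9, a cyclase with low sensitivity to forskolin, differed by -0.03 ± 0.22 in inflexible and 0.22 ± 0.22 in light drinkers. The striatal and prefrontal arrays did not overlap for 11 of 39 members in inflexible drinkers, where 12.6% of all genes did not overlap, and for 16 in light drinkers, where 19% did not.

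Members were also compared between arrays with high and low hybridisation controls. Of the 22 members above log2 4, 16 differed between them with one sign in all 4 groups, 6 higher and 10 lower on the high-control arrays. The same count was not made over all genes, so it is not read as particular to these members. Pde2a was lower on them by 0.52 on average (-0.52, range over the groups -0.86 to -0.28) and Adcy9 by 0.47 (-0.47, range -0.59 to -0.34). Below the mark for low signal, Pde4a was higher by 0.86 (0.77 to 0.95) and gave 3.39, 4.19 and 3.24 in inflexible prefrontal cortex, where the second array had high controls. Pde10a had no common sign, with values between -0.22 and 0.49.

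**Figure D4:**
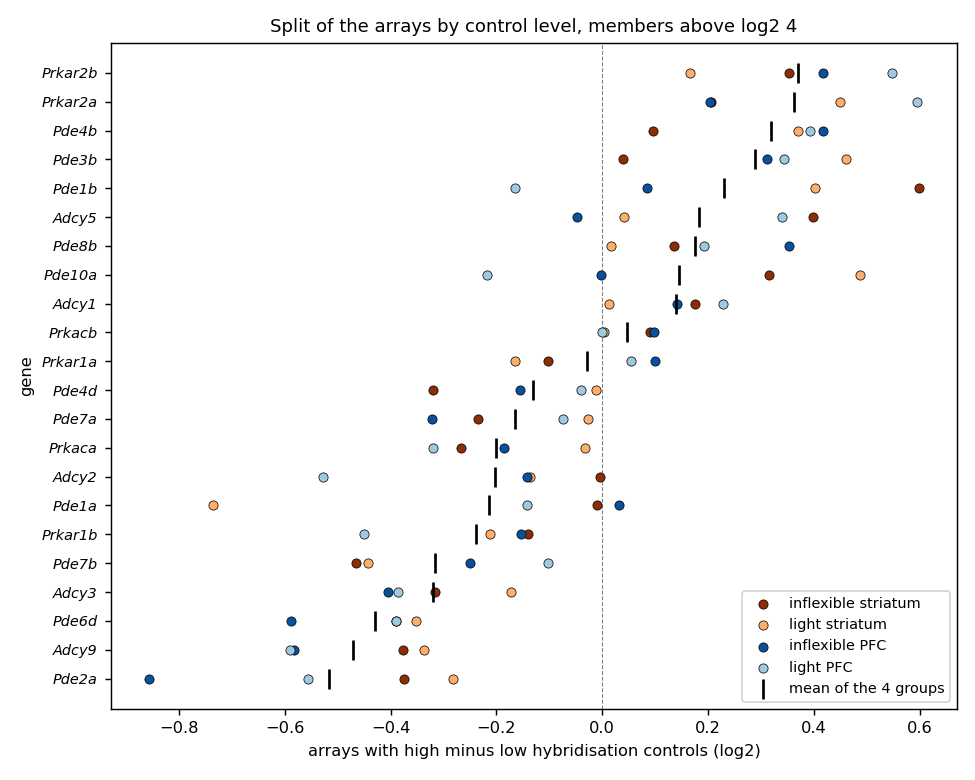
Difference between arrays with high and low hybridisation controls (log2, x axis) within each group for the 22 members above log2 4, coloured by group, with the mean of the 4 groups as a bar. Prkar2b, Prkar2a, Pde4b and Pde3b lie above 0 and Pde2a, Adcy9, Pde6d and Adcy3 below 0 in all 4 groups; each group has 1 or 2 arrays on each side.

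The partners of these enzymes in the pathway were counted from pathway lists. Of 15 anchoring proteins that tether protein kinase A, 1 fell in inflexible prefrontal cortex, the scaffold Akap12 (3.83 ± 0.08 in inflexible and 4.36 ± 0.18 in light drinkers, -0.53 ± 0.08, adjusted p = 0.0202), where 0.462% of all genes were called lower. Between the tissues 1 anchoring protein was lower in striatum of inflexible drinkers and 2 in striatum of light drinkers, beside 0.643% of all genes in inflexible and 2.5% in light drinkers. Akap7 was lower in both classes (-0.38 ± 0.07 in inflexible and -0.43 ± 0.07 in light drinkers), and Akap12 in light drinkers (-0.60 ± 0.08). Of 10 kinase substrates and CREB-family factors, 0 were called between the classes in prefrontal cortex and 1 in striatum. That gene was Arpp21, a cyclic AMP-regulated phosphoprotein, at 9.18 ± 0.03 in inflexible and 8.65 ± 0.02 in light striatum (0.53 ± 0.05, adjusted p = 0.024), where 0.022% of all genes were called higher. It was also called in the striatal minus prefrontal class difference (0.50 ± 0.08, adjusted p = 0.0334), where 0.165% of all genes were called higher. Arpp21 and Ppp1r1b, a protein phosphatase inhibitor that is also on the medium spiny neuron list, were higher in striatum in both classes, beside 0.561% of all genes in inflexible and 2.18% in light drinkers. Ppp1r1b differed by 2.40 ± 0.31 in inflexible and by 2.21 ± 0.31 in light drinkers. Of 7 G alpha subunits, 0 were called in any comparison, with a median prefrontal class difference of -0.24; Gnaz, an inhibitory subunit, averaged 4.45 ± 0.17 in inflexible and 4.88 ± 0.19 in light prefrontal cortex (adjusted p = 0.483). The 3 kinase inhibitor peptides, 6 other cyclic AMP effectors and 8 genes of the cyclic GMP branch had 0 called between the classes in either tissue. Each of these 3 lists had 1 gene lower in striatum of light drinkers, namely Pkig, Hcn3 and Prkg2.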

How the data were processed

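The values are those of a single table that the authors deposited, taken to be log2 intensities per probe set. Per the submitters' processing notes, RMA and the affy package were used, with no version given. No log base is given in the sources used here, and base 2 was inferred from the range, between 2.76 and 11.56 on the 12 arrays; fold changes rest on it. This kind of summary compresses low values. Total RNA was extracted with TRIzol and labelled with biotin for 1-colour arrays, per the labels' protocols. The number of arrays limits the precision.

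Of 45101 probe sets, 64 controls were left out. The remaining 45037 entered 1 limma fit (version 3.58.1, R 4.3.3, functions lmFit and eBayes) with 4 group means, which left 8 residual degrees of freedom. Two-sided p-values received a Benjamini-Hochberg adjustment across the 45037 probe sets, with calls at an adjusted p under 0.05; no label names the authors' test. By the platform annotation, 34945 probe sets had a single symbol, 932 had several and 9160 had none. Of the 39 members, 26 had more than 1 probe set, and the gene IDs of all 39 matched RefSeq. Tables and figures were made with Python 3.11.15, pandas 2.3.3, numpy 2.4.6 and matplotlib 3.10.9. The fit was tested on simulated data.

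The members and the lists were chosen with earlier results of these data known. Named members were those called, filled up to 6 per class comparison by the smallest p. In the tissue comparisons called members were named. From each pathway list up to 2 genes with the smallest prefrontal p could be named; other called genes of a list were named after their values were seen. Cell type markers are given as values only; the astrocyte (9 measured) and endothelial (6) lists had 0 called between the classes, the microglia list 1 of 8 lower (Ctss), the olfactory bulb list 3 of 9 lower and the septum and thalamus list 1 of 8 higher (Trpc4) in prefrontal cortex, and 0 in striatum.

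Same-numbered arrays of the prefrontal groups deviated together over 11853 probe sets (correlations of deviations from group means of 0.73, 0.84 and 0.61). No label pairs them, and the number entered only the replicate-block alternatives, not the fit reported. In both prefrontal groups the second array was the one with high controls, so shared numbers and the control split cannot be told apart here. In the other comparisons at least 1 pair was negative. Alternatives were a replicate block, the control split as a block or a subset, a filter at log2 4, quantile normalisation, array weights, the compared arrays alone, averaging the probe sets of a gene and leaving out each array.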

Additional observations from a re-analysis of the deposited data

How the results depend on the processing

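Here and below, brackets give the share of all genes tested that were called under the same setting. In prefrontal cortex 1 member was called between the classes in the fit reported (1.04%). The count was 3 with the control split as a block (3.19%), 4 on low-control arrays (3.70%) and 2 after quantile normalisation (1.18%). It was 7 with array weights (8.27%). The prefrontal arrays fitted alone with a replicate block, an alternative chosen after seeing the data, gave 3 (2.74%). Pde10a was kept in each of these. The high-control arrays hold 1 prefrontal array per class, so no count is given for them. Without 1 array the count was 1 to 2, while 80 to 196 of all genes were called. In striatum the count was 0 under every alternative, also without any 1 array (0 to 0). For the difference between tissues in the class difference, 0 (0.44%) became 1, Pde10a, under 3 settings. These were the control split as a block (1.33%), the filter at log2 4 (1.13%) and array weights (2.35%). The low-control arrays hold 1 array of inflexible striatum and are left out here. Without 1 array the count was 0 to 1, while 28 to 87 of all genes were called.

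For tissue in inflexible drinkers, 6 (1.20%) became 10 with array weights (2.91%) and 1 with the compared arrays alone (0.22%). Without 1 array the count was 4 to 7, while 107 to 248 of all genes were called. The low-control arrays hold 1 array of inflexible striatum, so their count for inflexible drinkers is not given here. In light drinkers, 8 (4.68%) became 16 with array weights (13.5%). With the compared arrays alone 8 were called (3.34%), with Adcy2 and Pde8a lost and Pde7a and Prkacb gained. Without 1 array the count was 7 to 9, while 542 to 912 of all genes were called. No named difference changed sign. The causes were not tested. Fits on high-control arrays have 5 arrays, with 1 in each prefrontal group, so their counts for tissue are not given here. Over all settings, genes called ran between 0 and 1504 for class in prefrontal cortex, 0 and 20 for class in striatum, 0 and 428 for the interaction, 0 and 583 for tissue in inflexible drinkers and 0 and 2457 in light drinkers.

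Over all arrays a replicate block left 1 member called for class in prefrontal cortex (0.594%), 0 in striatum (0.0165%) and 0 for the interaction (0.132%). For tissue it left 5 in inflexible drinkers (0.879%, Pde4d lost) and 7 in light drinkers (3.65%, Pde8a lost). The samples of a block share a number, and no label pairs them.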

Other observations

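Among members outside the named ones, the cyclic AMP-specific Pde4b differed by 0.28 ± 0.16 between inflexible and light striatum (5.33 ± 0.12 and 5.05 ± 0.24, n = 3 each) and by -0.02 ± 0.16 in prefrontal cortex. Prkar1a, the type I alpha regulatory subunit, differed between striatum and prefrontal cortex by -0.25 ± 0.07 in inflexible and -0.15 ± 0.07 in light drinkers. Pde1a was the one member lower in striatum by over 0.4 in both classes that was called in neither, at -0.70 ± 0.16 in inflexible and -0.49 ± 0.16 in light drinkers. Adcy1, a calmodulin-stimulated cyclase of forebrain neurons, differed by -0.09 ± 0.13 in inflexible and -0.31 ± 0.13 in light drinkers. None of these passed the adjusted threshold.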
